A study of Mus musculus with 48 samples.

Results

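The genes described here encode the enzymes and carriers that burn fatty acids in mitochondria and peroxisomes. The set was given as a list of 34 gene symbols, and all 34 were found among the 54532 genes listed in the count table. Of these, 19 act in mitochondria, 11 in peroxisomes and 4 in both compartments. Their RNA was measured by bulk RNA-seq in the inguinal subcutaneous white fat (iWAT, also called sWAT) of 8-month-old male C57BL/6 mice. The animals either fed ad libitum (ad-lib) or received their food in 2 meals within the dark phase, an early and a late one (twice-a-night feeding, TAN). Each diet was sampled at 8 AM, 12 PM, 4 PM, 8 PM, 12 AM and 4 AM, with 4 libraries per diet and time and 48 libraries in all, and the dark phase ran from 8 PM to 8 AM. The labels name no genetic alteration and no drug in either group. Replicate numbers are taken from the labels, and p-values measure the spread between these libraries, whatever its source.

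Long-chain fatty acids enter mitochondria as carnitine esters and are then shortened in repeated rounds of dehydrogenation, hydration, a further dehydrogenation and thiolysis. Electrons leave the first step through the electron transfer flavoprotein. Peroxisomes shorten very long, branched and dicarboxylic acids by a parallel set of enzymes, and remove a single carbon from 3-methyl acids such as phytanic acid by alpha-oxidation. White fat is best known for storing and releasing fatty acids, whereas brown and beige fat oxidize them to make heat.

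Total counts ranged from 15636400 to 29913300 per library (median 20882100). The series text speaks of stromal vascular cells and the study's methods of the whole depot. Markers of mature adipocytes were present throughout, since Adipoq, the gene of adiponectin, ranged from 551 to 7053 CPM, the count scaled to the library size, and Plin1, a lipid droplet coat protein, from 176 to 2231 CPM. Ucp1, the uncoupling protein of brown and beige fat, did not exceed 3.18 CPM and had 0 counts in 22 libraries. The skeletal muscle actin gene Acta1 ranged from 2.49 to 2149 CPM, so that the libraries differed widely in RNA of another cell type. In such bulk samples fewer cells of a type and less RNA per cell cannot be told apart. In a gene table of the study the animals with the names of the 48 libraries are listed 12 h away from the time of the labels, for 48 of 48 libraries. The times of the labels are used here, and which of the listings is right was not settled. A common shift would leave each comparison of the diets within a time as it is. In ad-lib libraries the clock gene Arntl averaged 32.3 CPM at 8 AM and 9.93 CPM at 4 PM, and the clock-controlled gene Dbp 8.37 and 102 CPM. Ad-lib 4 AM libraries 1 and 3 stood apart in clock genes. Nr1d1 was at 54.5 and 69.9 CPM there, against 7.44 and 4.62 CPM in libraries 2 and 4. Some results over the whole day are also given without them, while the 4 AM comparison of the diets is given with them only.

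Compared per length, as RPKM, the CPM divided by the gene's length in kilobases, the set spanned a wide range. Scp2, which encodes a peroxisomal thiolase and a sterol carrier from the same gene, had the highest median level over the 48 libraries at 296 RPKM (range 129.6 to 653). Etfa, the alpha subunit of the electron transfer flavoprotein, followed at 183 RPKM, Acadl, the long-chain acyl-CoA dehydrogenase, at 167 and Eci1, an isomerase for unsaturated chains, at 165. The low end was formed by Acox3, a peroxisomal oxidase of branched chains, at 3.36 RPKM, Acad10 at 2.15 and Hacl1, the lyase of alpha-oxidation, at 1.34. Within the carnitine shuttle the inner-membrane transferase Cpt2 had a median of 64.6 RPKM, while Cpt1a, the outer-membrane transferase that is regarded as the gate of the pathway, had 9.13. Summed over the members, the mitochondrial RPKM was 1.87 to 2.42 times the peroxisomal RPKM in every library.

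**Figure D1:**
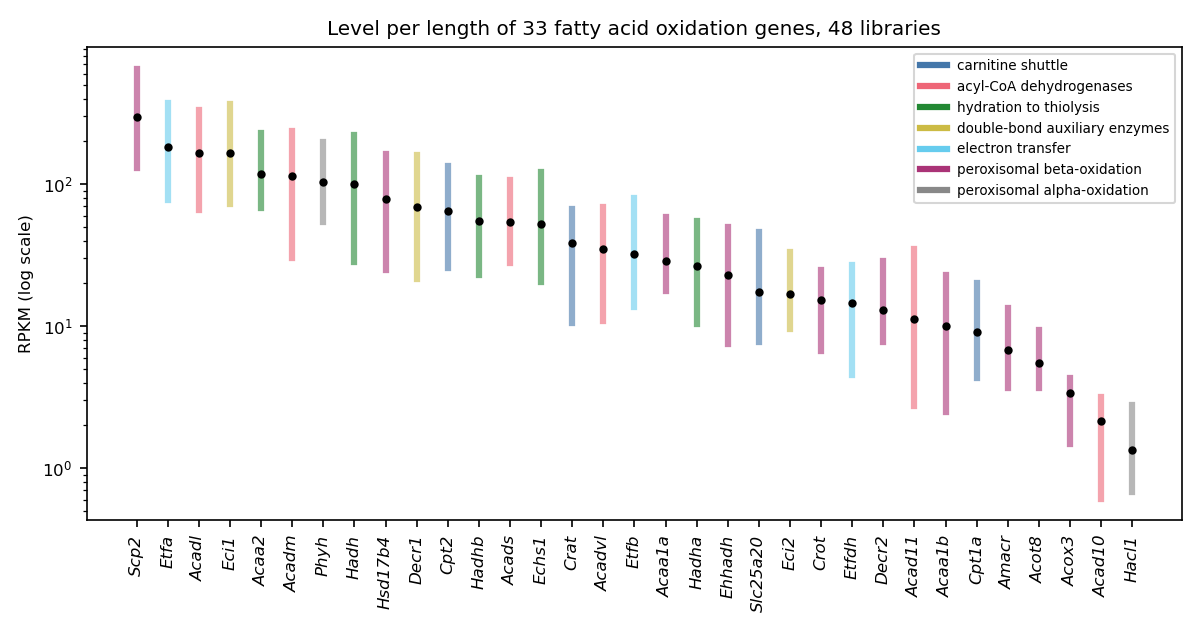
Lowest, median and highest level (RPKM, log axis) of the 33 tested genes over the 48 libraries, grouped by role. Scp2, Etfa, Acadl and Eci1 lie at the top with medians of 165 to 296 RPKM, and Acox3, Acad10 and Hacl1 at the bottom with 1.34 to 3.36 RPKM.

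The remaining member, Cpt1b, encodes the form of carnitine palmitoyltransferase 1 that is typical of muscle and brown fat. It had 0 counts in 35 of the 48 libraries, at most 27 counts in any, and 69 counts in total. At 4 PM it was at 0 in the 4 ad-lib libraries and at 0, 0.270, 0 and 0 CPM in the TAN libraries. Given that 0 counts leave room for up to 3, Cpt1b was not detectable in most libraries, and it did not pass the filter on low counts. A longer gene on the same strand, Gm44502, spans the whole of Cpt1b and held 2 counts, so reads shared between these annotations may be missing from both.

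The diets were compared time by time with edgeR's quasi-likelihood test and Benjamini-Hochberg adjustment over 19977 genes, at an adjusted p below 0.05. The question was when, and in which compartment, oxidation genes differed between TAN and ad-lib fat. At 4 PM, in the late light phase, 19 of the 33 tested members were higher in TAN and 1, Cpt1a, was lower. Over all genes tested, 6.54% were higher and 8.77% lower at that time. The median log2 difference of the members was 0.85 (all genes -0.09), and 31 of 33 values were positive. In 24 members every TAN library lay above every ad-lib library (12.8% of all genes) and in 1 every TAN library lay below (17.8% of all genes).

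At the other 5 times edgeR called no member. The 8 AM comparison called 0.0150% of all genes, and 0 members had an unadjusted p below 0.05 against 6.58% of all genes. At 12 PM the shares over all genes were 0.0901% after adjustment and 7.37% before it, and 2 members, Acad10 and Hadha, had an unadjusted p below 0.05. At 8 PM they were 11.7% and 28.0%, with 3 such members. At 4 AM they were 0% and 2.64%, with 2 such members, and the ad-lib libraries with deviating clock genes are included. DESeq2 and limma-voom called 0 members at these 4 times too. The 12 AM comparison lay between, as 15 members had an unadjusted p below 0.05 (17.5% of all genes), all of them higher in TAN, with a median log2 difference of 0.63 over the 33 members (all genes -0.14). After adjustment 0 were called by edgeR (0.150% of all genes) and by limma-voom, and 1, Slc25a20, by DESeq2.

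**Figure D2:**
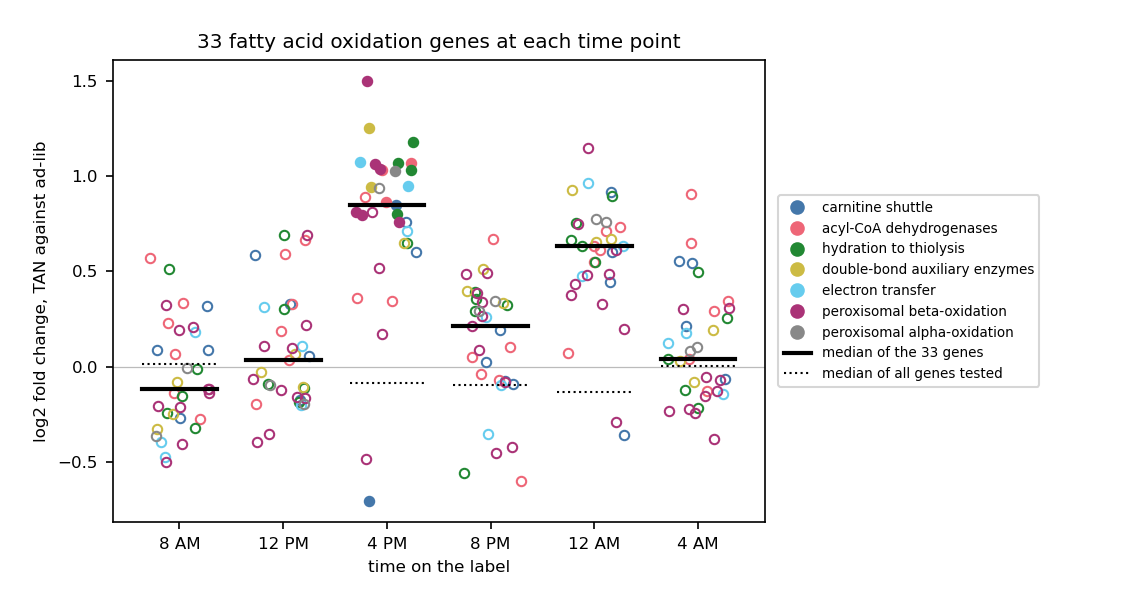
Log2 difference of TAN against ad-lib for each of the 33 tested genes at the 6 times, filled where the adjusted p was below 0.05, with lines at the medians. Filled points occur at 4 PM alone, 19 above and 1 below 0, and the median of the genes was 0.85 at 4 PM and 0.63 at 12 AM.

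Markers of other cell types and signs of library composition moved with the diet at 4 PM. Of 12 lymphocyte markers 12 were lower in TAN without overlap and 5 were called, and their summed level was 1298 to 2249 CPM in ad-lib and 11.9 to 425 CPM in TAN, with none at 0. Of 6 beige and brown fat markers 3 were higher, among them Cidea (log2 difference 1.72) and Cox7a1 (2.43), of 6 macrophage markers 1 was lower, and of 4 tested epithelial markers 1, Epcam (-4.97, adjusted p = 0.0211), was lower without overlap. Mitochondrially encoded genes took 4.72% to 5.20% of counts in ad-lib and 4.89% to 8.52% in TAN, where 3 of 4 libraries lay above ad-lib. Genes of the annotation class TEC took 0.0882% to 0.110% in ad-lib and 0.0327% to 0.0847% in TAN, without overlap. All 10 adipocyte markers had positive differences and 2 were called, Retn and Fabp4. Their summed level was 18259 to 26616 CPM in ad-lib and 40685 to 68316 CPM in TAN, a median log2 difference of 1.06. Muscle markers summed to 37.7 to 64.3 CPM in ad-lib and 68.5 to 95.3 CPM in TAN, with Myh1, Myh2, Myh4 and Myh7 at 0 in every TAN library. Of the tested muscle markers only Myl1 had a positive log2 difference (0.97, without overlap). The others had negative values, and none was called, so the higher sum does not describe the muscle markers in general. The mean log2 CPM of the 33 members was 6.16 to 6.57 in ad-lib and 7.09 to 7.22 in TAN. Relative to the adipocyte markers of the same library it was -4.00 to -3.64 in ad-lib and -4.25 to -3.96 in TAN. With the lymphocyte markers as a covariate edgeR called 0 members at 4 PM (1 at an unadjusted p below 0.05) and the median log2 difference was 0.32. With the adipocyte markers as a covariate, an alternative added after seeing the data, it called 0 (2 unadjusted) and the median was 0.25. The shares of all genes called in these covariate fits are not given here, so the counts do not show a loss particular to the members. All member results at 4 PM stand beside these values, and the part of these differences in them was not tested.

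**Figure D3:**
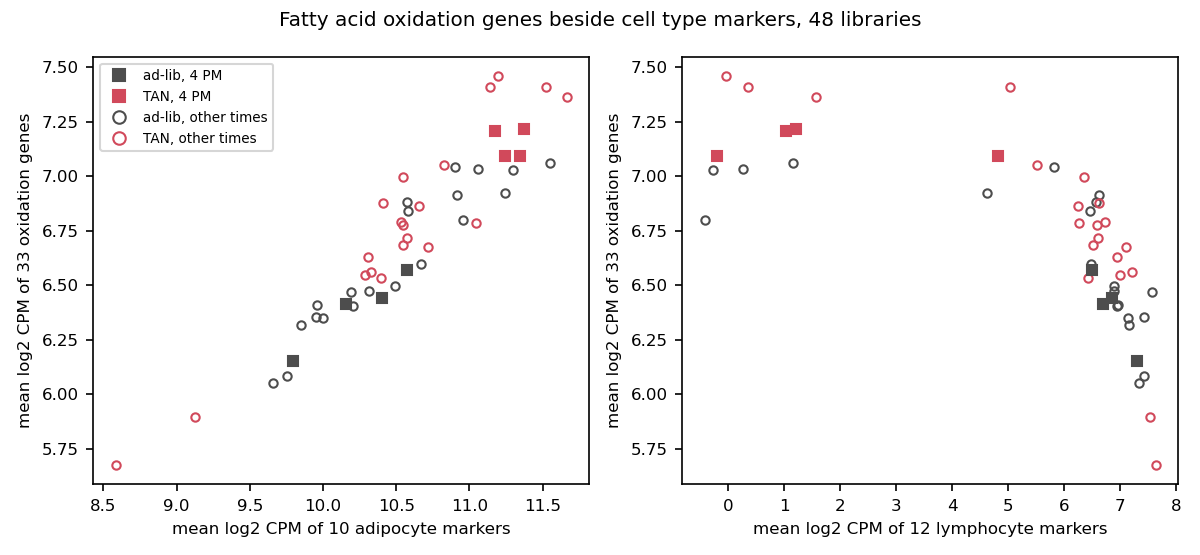
Mean log2 CPM of the 33 tested genes in each of the 48 libraries against the mean of the 10 adipocyte markers and of the 12 lymphocyte markers, with the 4 PM libraries as squares. The TAN libraries of 4 PM lie at 7.09 to 7.22 for the members, at 11.2 to 11.4 for the adipocyte markers and at -0.20 to 4.81 for the lymphocyte markers, against 6.16 to 6.57, 9.79 to 10.6 and 6.49 to 7.30 in ad-lib.

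Among the 4 tested genes of the carnitine shuttle, 1 was higher and 1 lower at 4 PM. Cpt1a, whose product attaches carnitine to long-chain acyl groups and is inhibited by malonyl-CoA, was at 59.4, 76.0, 86.1 and 72.7 CPM in ad-lib libraries 1 to 4 (73.5 ± 11.0, SD, n = 4). In TAN it was at 36.1, 58.6, 38.7 and 47.0 CPM (45.1 ± 10.1). The 4 TAN libraries lay below the 4 ad-lib libraries, and the log2 difference was -0.71 (SE 0.25, adjusted p = 0.0493), close to the threshold.

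Slc25a20, the translocase that exchanges acylcarnitine for carnitine across the inner membrane, moved the other way. It was at 53.4, 66.2, 52.4 and 72.4 CPM in ad-lib (61.1 ± 9.80) and at 139, 87.9, 109 and 104 CPM in TAN (110.2 ± 21.5), a log2 difference of 0.85 (SE 0.29, adjusted p = 0.0430). This gene was added to the named genes after its values were seen. Cpt2, which returns the acyl group to coenzyme A, was at 134, 153, 119 and 158 CPM in ad-lib and at 270.2, 222, 189 and 273 CPM in TAN. The groups did not overlap, with a log2 difference of 0.76 (SE 0.30), but the adjusted p was 0.0760. Crat, the carnitine acetyltransferase, had a log2 difference of 0.60 with overlapping groups (adjusted p = 0.240).

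Acyl-CoA dehydrogenases open each round of mitochondrial oxidation, and of the 6 genes of this family in the set 3 rose at 4 PM. The medium-chain enzyme Acadm was at 361, 393, 230.1 and 334 CPM in ad-lib and at 863, 579.6, 569 and 758 CPM in TAN, a log2 difference of 1.07 (SE 0.36, adjusted p = 0.0388). The short-chain enzyme Acads was at 76.9, 115, 75.5 and 107 CPM against 166, 185, 244 and 171 CPM, a log2 difference of 1.03 (SE 0.30, adjusted p = 0.0223). For Acadl the values were 264, 297, 206 and 298 CPM against 673, 420.4, 374 and 472 CPM, a log2 difference of 0.86 (SE 0.29, adjusted p = 0.0371). In each of these 3 genes the lowest TAN library exceeded the highest ad-lib library, and ad-lib library 3 was the lowest of all. Acadvl, the very-long-chain enzyme, did not overlap either but missed the threshold, with a log2 difference of 0.89 and an adjusted p of 0.0508. Acad10 and Acad11, less studied relatives, had log2 differences of 0.34 and 0.36 with overlapping groups.

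The enzymes of the later steps, from hydration to thiolysis, rose in 4 of 5 cases. Hadh, the 3-hydroxyacyl-CoA dehydrogenase for shorter chains, was at 340.1, 413, 246 and 365 CPM in ad-lib and at 1071, 591, 718 and 704 CPM in TAN, a log2 difference of 1.18 (SE 0.37, adjusted p = 0.0301). TAN library 1 was the highest by a wide margin. The hydratase Echs1 was at 346, 349.9, 235 and 300.4 CPM against 706, 549, 740.3 and 585 CPM, a log2 difference of 1.07 (SE 0.36, adjusted p = 0.0412). The thiolase Acaa2 was at 161, 172, 103 and 149 CPM against 283, 219.5, 263 and 254 CPM, a log2 difference of 0.80 (SE 0.25, adjusted p = 0.0316). Neither of these genes had overlapping groups.

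Hadha and Hadhb encode the alpha and beta subunits of the mitochondrial trifunctional protein, which carries out the last 3 reactions on long chains. The genes are neighbours that run in opposite directions. Hadha lies on the minus strand at chr5:30118304-30155162 and Hadhb on the plus strand at chr5:30155248-30184593 (GRCm38), so that only 85 bases separate their starts. This stretch, chr5:30155163-30155247, is printed from the plus strand because both genes begin at its edges, and was read from RefSeq promoter windows of GRCm38.p6. It holds 69.4% G and C and 2 GGGCGG boxes, shown in capitals, on either strand, and no CCAAT box.
Hadha to Hadhb: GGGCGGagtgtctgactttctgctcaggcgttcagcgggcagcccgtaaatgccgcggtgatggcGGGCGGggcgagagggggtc
Of 32817 promoter windows of all genes, each of 300 bases, 35.6% held GGGCGG and 37.4% held CCAAT.

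Despite the shared stretch, the subunits gave different calls at 4 PM. Hadhb was at 271, 280.3, 202 and 265 CPM in ad-lib and at 611, 469, 403 and 599 CPM in TAN, a log2 difference of 1.03 (SE 0.31, adjusted p = 0.0270). Hadha was at 191, 226, 188 and 220.0 CPM against 275, 323, 212 and 482 CPM, a log2 difference of 0.65 (SE 0.26, adjusted p = 0.0813), with TAN library 3 inside the ad-lib range. The difference between the subunits' responses was not tested. On the RPKM scale the log2 ratio of Hadha to Hadhb was -0.908 to -0.504 in the ad-lib and -1.56 to -0.719 in the TAN libraries of 4 PM, ranges that overlap, and -2.38 to -0.504 over all 48 libraries. Hadha overlaps Garem2 on the opposite strand, and whether reads were counted by strand is not given in the sources used here.

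Of the 3 auxiliary enzymes for unsaturated chains, Decr1 and Eci1 rose. Decr1, the dienoyl-CoA reductase of mitochondria, was at 199.8, 207, 137 and 194 CPM in ad-lib and at 552, 346, 458 and 398 CPM in TAN. Its log2 difference of 1.25 (SE 0.38, adjusted p = 0.0259) was the largest among the mitochondrial members. Eci1 was at 121, 157, 95.7 and 140.4 CPM against 269, 218, 297 and 206 CPM, a log2 difference of 0.94 (SE 0.32, adjusted p = 0.0435). Eci2, a related isomerase found in both compartments, had a log2 difference of 0.65 (adjusted p = 0.0902) without overlap.

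The electron transfer flavoprotein passes electrons from the dehydrogenases to the respiratory chain. Its alpha subunit Etfa was at 282, 291, 188 and 232 CPM in ad-lib and at 503, 431, 528 and 453 CPM in TAN, a log2 difference of 0.95 (SE 0.34, adjusted p = 0.0495). The groups did not overlap, yet the call lay at the edge of the threshold. The beta subunit Etfb had a log2 difference of 1.07 (adjusted p = 0.0459), and the receiving dehydrogenase Etfdh 0.71 with overlap (adjusted p = 0.0904).

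Peroxisomal beta-oxidation rose in 6 of 10 tested genes at 4 PM. Hsd17b4, the D-bifunctional protein that hydrates and dehydrogenates the chain, was at 201, 235, 144 and 210.3 CPM in ad-lib and at 554, 384, 317 and 398 CPM in TAN, a log2 difference of 1.06 (SE 0.33, adjusted p = 0.0300). Scp2 was at 826, 820.0, 570.3 and 689 CPM against 1772, 1266, 1538 and 1389.6 CPM, a log2 difference of 1.04 (SE 0.35, adjusted p = 0.0409). Both were free of overlap between the diets, although Scp2 overlaps Podn on the same strand.

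The 3-ketoacyl-CoA thiolase of peroxisomes has 2 gene copies in the mouse. Acaa1a was at 87.9, 121, 93.5 and 104 CPM in ad-lib and at 145, 173, 214 and 155 CPM in TAN, a log2 difference of 0.76 (SE 0.24, adjusted p = 0.0328). Acaa1b, the lower copy, was at 11.9, 12.0, 7.00 and 14.4 CPM against 33.998, 35.7, 32.4 and 25.9 CPM, and its log2 difference of 1.50 (SE 0.51, adjusted p = 0.0401) was the largest of the whole set. Both copies moved in the same direction, but how the counting divided reads between near-identical copies is not given, so their separate sizes are uncertain.

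Crot, which makes medium-chain acylcarnitines for export from peroxisomes, was at 71.2, 69.7, 60.8 and 60.9 CPM in ad-lib and at 119, 108, 113 and 116 CPM in TAN. Its TAN libraries lay close together, and the log2 difference was 0.80 (SE 0.24, adjusted p = 0.0260). The reductase Decr2 was at 29.2, 31.9, 17.7 and 26.7 CPM against 65.3, 32.0, 54.9 and 33.2 CPM, a log2 difference of 0.81 (SE 0.27, adjusted p = 0.0375). Its TAN libraries 2 and 4 lay just above the highest ad-lib library, and libraries 1 and 3 well above it.

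Ehhadh, the L-bifunctional enzyme and a textbook target of the nuclear receptor PPARalpha, was not among the called genes. It was at 77.8, 80.7, 53.3 and 62.5 CPM in ad-lib and at 116, 91.0, 77.3 and 108 CPM in TAN, with TAN library 3 inside the ad-lib range. The log2 difference was 0.52 (adjusted p = 0.354), with a 95% interval of -0.25 to 1.28. Acox3 was the only peroxisomal member with a negative value, -0.48 (adjusted p = 0.113), and the thioesterase Acot8 and the racemase Amacr had 0.17 (adjusted p = 0.661) and 0.81 (adjusted p = 0.0562).

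In the alpha-oxidation of phytanic acid, Phyh carries out the first hydroxylation. It was at 145, 184, 108 and 149 CPM in ad-lib and at 333, 254, 304 and 302 CPM in TAN, a log2 difference of 1.03 (SE 0.30), and its adjusted p of 0.0217 was the smallest of the set. Hacl1, which cleaves the hydroxylated product, had a log2 difference of 0.94 without overlap and an adjusted p of 0.0523.

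**Figure D4:**
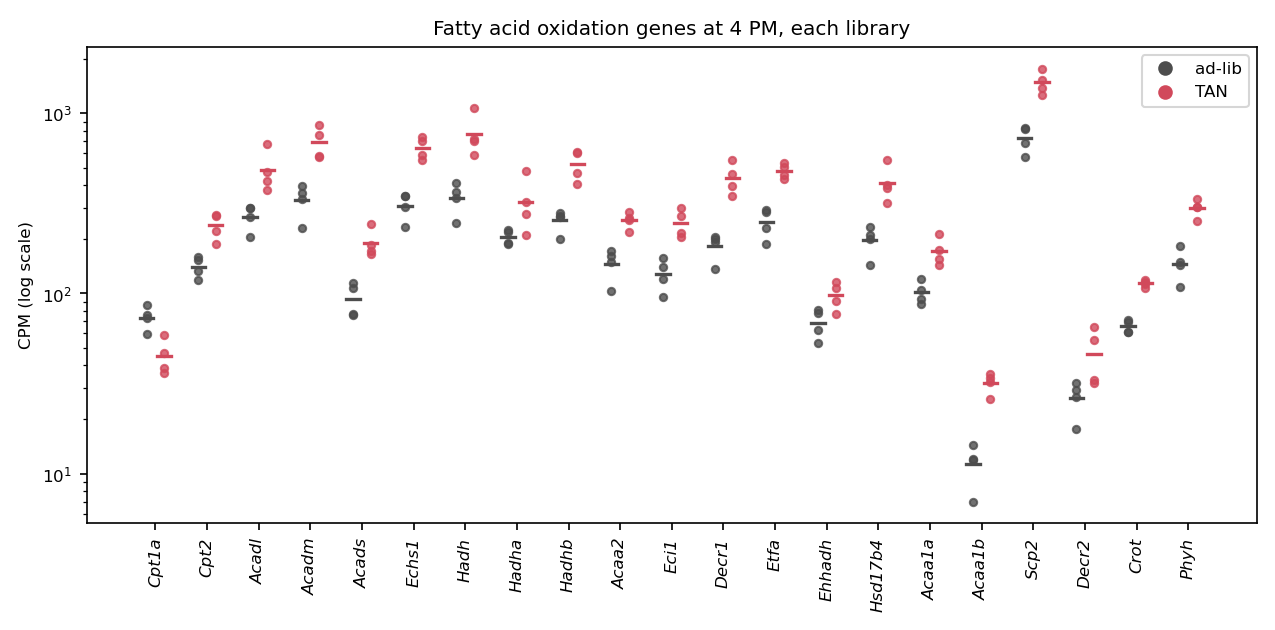
CPM (log axis) at 4 PM in each of the 4 ad-lib and 4 TAN libraries for 21 genes named by the fixed rule. All TAN points lie above all ad-lib points except in Hadha and Ehhadh, which overlap, and in Cpt1a, where all TAN points lie below.

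The medians of the compartments were close to each other. At 4 PM, 12 of 18 mitochondrial members were higher and 1 lower, with a median log2 difference of 0.92, and 7 of 11 peroxisomal members were higher, with a median of 0.81. Of the 4 genes of both compartments 0 were called by edgeR (2 at an unadjusted p below 0.05), with a median of 0.62. Within a library, the mean log2 CPM of the mitochondrial members exceeded that of the peroxisomal members by 1.23 to 1.35 in ad-lib and by 1.25 to 1.55 in TAN, ranges that overlap. On the RPKM scale the summed mitochondrial level was 2.18 to 2.41 times the peroxisomal level in ad-lib and 2.16 to 2.32 times in TAN.

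Single libraries carried weight in the 4 PM count. Without ad-lib library 1, 2, 3 or 4 of that time, 6, 13, 0 and 2 members were called, and without TAN library 1, 3 or 4, 0, 9 and 8. Shares over all genes in these fits are not given here. Over all fits that left out 1 of the 48 libraries, the median log2 difference at 4 PM stayed between 0.78 and 0.94.

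Averaged over the 6 times, 6 members were higher in TAN and 0 lower (2.68% of all genes were higher), with a median log2 difference of 0.26 (all genes -0.08). These were Slc25a20 with 0.49 (SE 0.12, adjusted p = 0.0133), Hadhb with 0.47 (SE 0.13, adjusted p = 0.0250) and Hadha with 0.39 (SE 0.11, adjusted p = 0.0280). Acadvl followed with 0.43 (SE 0.13, adjusted p = 0.0422), Acadl with 0.37 (SE 0.12, adjusted p = 0.0478) and Acaa1b with 0.65 (SE 0.20, adjusted p = 0.0487). Slc25a20, Hadha and Hadhb were called in 48 of 48 fits that left out 1 library, Acadvl in 20, Acadl in 13 and Acaa1b in 10. Hadha thus passed over the day though at no single time, and its mean level in TAN was above ad-lib at every time but 8 PM, where it was at 128, 89.8, 130.2 and 202 CPM against 151, 196, 188 and 274 CPM (log2 difference -0.56, adjusted p = 0.156).

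At 12 AM, after the first meal of the dark phase, the translocase had the smallest p of the set. Slc25a20 was at 109, 99.9, 61.6 and 72.0 CPM in ad-lib and at 88.5, 224, 139 and 194 CPM in TAN, a log2 difference of 0.92 (SE 0.29, adjusted p = 0.133). TAN library 1 lay inside the ad-lib range here, and likewise in Hadhb, at 424, 373, 234 and 274 CPM against 356, 732, 605 and 731 CPM (log2 difference 0.89, adjusted p = 0.157). Without TAN 12 AM library 1 edgeR called 3 members at this time, Slc25a20, Hadhb and Etfb. The lymphocyte markers of the 4 TAN libraries at 12 AM had means of -0.05 to 7.09 on the log2 CPM scale against 6.45 to 6.88 in ad-lib, with overlap. The adipocyte marker means did not overlap, at 10.7 to 11.5 in TAN and 10.5 to 10.7 in ad-lib, and neither did the share of mitochondrially encoded genes in the counts, at 6.38% to 11.9% and 4.27% to 5.75%. The part of these values in the result was not tested.

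The next question was whether the genes changed over the day within a diet. In ad-lib, edgeR called 0 of 33 members (0.0551% of all genes), as did limma-voom, and 2 members, Cpt1a and Acad11, had an unadjusted p below 0.05 (6.67% of all genes). In TAN 6 of 33 members changed over the day, against 23.0% of all genes, a share no larger than the background. They were Acad11 (adjusted p = 0.00315), Hadha (adjusted p = 0.00676), Slc25a20 (adjusted p = 0.0232), Cpt1a (adjusted p = 0.0269), Decr2 (adjusted p = 0.0305) and Cpt2 (adjusted p = 0.0319). The genes of this and the next paragraphs were named for these tests, after their values were seen.

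Acad11 had its highest mean at 12 AM in both diets. In TAN it was at 180.0, 342, 245 and 336 CPM at 12 AM and at 41.8, 38.1, 67.9 and 155 CPM at 8 PM, a step between neighbouring times with no overlap. The adipocyte marker Adipoq was at 890, 551, 3782 and 6395 CPM in the same TAN 8 PM libraries, and its part in the step was not tested. In ad-lib Acad11 was at 219.6, 192, 130.1 and 171 CPM at 12 AM and at 68.7, 94.1, 97.5 and 198 CPM at 8 PM, with overlap from library 4 of 8 PM. At 4 AM the TAN libraries had 210.4, 131, 185 and 167 CPM against 92.9, 126, 112 and 39.9 CPM in ad-lib, a log2 difference of 0.90 (unadjusted p = 0.0181, adjusted p = 1).

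Cpt1a followed another course, with its ad-lib maximum at 4 PM, the only time at which its lower level in TAN was called. Its TAN mean was below its ad-lib mean at every time but 4 AM. Its ad-lib means were 39.9 CPM at 8 AM, 43.8 at 12 PM, 73.5 at 4 PM, 45.2 at 8 PM, 33.3 at 12 AM and 46.5 at 4 AM. The 4 AM mean rests on 84.2, 27.5, 42.9 and 31.2 CPM, where library 1 is one of the 2 with deviating clock genes. Without that library edgeR called Cpt1a over the day in ad-lib. In TAN the means were 33.1, 38.7, 45.1, 42.9, 26.0 and 53.8 CPM in the same order, lowest at 12 AM and highest at 4 AM, and the 4 AM libraries at 55.6, 62.4, 54.4 and 42.7 CPM lay above all 12 AM libraries at 33.6, 23.7, 28.1 and 18.4 CPM.

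Slc25a20, Cpt2 and Hadha had their lowest TAN levels at 8 AM or 8 PM. Slc25a20 rose from a TAN mean of 73.3 CPM at 8 AM to 161 at 12 AM, and Cpt2 from 139 to 265. Hadha stood at 137 CPM at 8 PM and at 324 and 339 CPM at 12 AM and 4 AM. Leaving out TAN 12 AM library 2 left 2 members called over the TAN day, Hadha and Acad11, and leaving out TAN 12 AM library 4 left 3. The count was 10, 24 and 19 without TAN 12 PM library 4, TAN 8 PM library 4 and TAN 12 AM library 1, respectively. Adipocyte marker means spread over 8.58 to 11.7 on the log2 CPM scale among the TAN 8 PM libraries, and their part in the course was not tested.

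**Figure D5:**
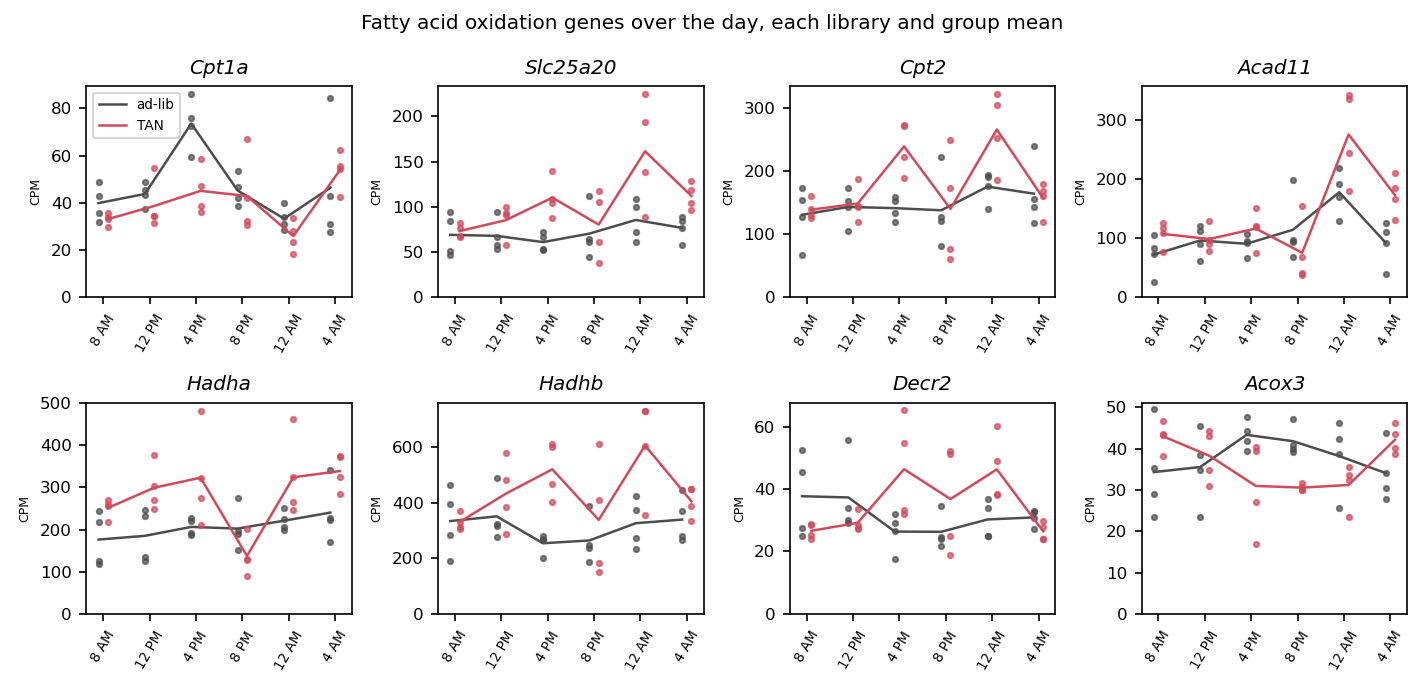
CPM of Cpt1a, Slc25a20, Cpt2, Acad11, Hadha, Hadhb, Decr2 and Acox3 in every library against clock time, with group means joined for each diet. Cpt1a in ad-lib peaks at 4 PM with a mean of 73.5 CPM, Acad11 in TAN at 12 AM with 276 CPM, and Decr2 has its highest TAN means at 4 PM and 12 AM, 46.3 CPM each.

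Decr2 was the 1 member whose diet difference itself varied between times (adjusted p = 0.0396), where 8.98% of all genes passed, so the members as a set do not stand above the background here. Its log2 difference was -0.50 at 8 AM, -0.35 at 12 PM, 0.81 at 4 PM, 0.48 at 8 PM, 0.61 at 12 AM and -0.22 at 4 AM. Only the 4 PM difference was called on its own, so the signs at the other times are descriptions. At 8 AM the ad-lib libraries were at 45.3, 25.1, 27.7 and 52.6 CPM and the TAN libraries at 23.98, 28.6, 28.6 and 25.2 CPM. Decr2 was called by this test in 38 of 48 fits that left out 1 library.

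A fitted 24-hour sine wave gave a similar picture. In ad-lib it was called for 0 members by edgeR (0.0801% of all genes), with 4 at an unadjusted p below 0.05 (11.4% of all genes), and in TAN for 3 members (19.8% of all genes). In TAN the fitted peak of Acad11 was at 2.12 h after midnight (amplitude 0.59 log2, adjusted p = 0.0151), that of Decr2 at 19.6 h (0.40 log2, adjusted p = 0.0230) and that of Acox3 at 7.43 h (0.29 log2, adjusted p = 0.0458). In fits without 1 library these waves were called 48, 46 and 9 times of 48, in the same order. The waves differed between the diets in 4 members (20.2% of all genes), again no larger a share than the background. These were Decr2 (adjusted p = 0.00797), Acox3 (adjusted p = 0.0197), Acads (adjusted p = 0.0421) and Acaa2 (adjusted p = 0.0438). Acox3 ran the other way from Decr2, with TAN libraries at 43.3, 43.6, 38.3 and 46.8 CPM at 8 AM and at 31.7, 29.9, 30.0 and 30.6 CPM at 8 PM. The ad-lib libraries of Acox3 were at 29.0, 49.6, 35.3 and 23.5 CPM at 8 AM and at 47.2, 39.2, 40.0 and 40.8 CPM at 8 PM. Since the ad-lib waves themselves were not called, their fitted peaks, 8.31 h for Decr2 and 18.5 h for Acox3, are descriptions. The difference was called for Decr2 and Acox3 in 48 of 48 fits without 1 library, and for Acaa2 and Acads in 33 and 32.

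Genes around the pathway gave the following counts at 4 PM, each beside the 6.54% higher and 8.77% lower of all genes. Of 24 genes of peroxisomal import and biogenesis 8 were higher and 0 lower, with a median log2 difference of 0.80 and 23 positive values. Pex16, needed to place proteins in the peroxisomal membrane, was at 82.6, 78.2, 60.1 and 66.5 CPM in ad-lib and at 151, 172, 167 and 184 CPM in TAN (log2 difference 1.23, adjusted p = 0.0155). Slc25a17, a peroxisomal cofactor carrier, rose by 0.78 on the log2 scale (adjusted p = 0.0249).

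Of 10 tested genes of fatty acid activation and carnitine supply 2 were higher at 4 PM, Tmlhe and Aldh9a1, and 0 lower. These encode enzymes of carnitine synthesis, with log2 differences of 1.24 (adjusted p = 0.0338) and 0.48 (adjusted p = 0.0473). Among 6 acyl-CoA thioesterases 1 was higher, Acot13 (0.89), and 0 lower. Of 6 ketone body enzymes 1 was higher, Acat1 (0.91, adjusted p = 0.0356), and 1 lower, Bdh1, which was at 5.22, 4.43, 9.77 and 6.46 CPM in ad-lib and at 0, 0.486, 2.55 and 0.223 CPM in TAN.

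Among 9 PPAR and ERR regulators, which include the receptors known to drive oxidation genes, 1 was higher at 4 PM and 0 lower. This was Esrra, the gene of ERRalpha, at 22.8, 31.8, 20.4 and 28.1 CPM in ad-lib and at 26.8, 60.6, 81.5 and 45.9 CPM in TAN (log2 difference 1.06, adjusted p = 0.0293), with TAN library 1 inside the ad-lib range. At 8 PM, when 11.7% of all genes were called in either direction, 2 of the 9 were lower, the coactivator gene Ppargc1a (-1.56) and the corepressor gene Nrip1 (-1.15), at a time when no member was called. Of 8 PPAR-inducible lipid genes outside oxidation 1 was higher at 4 PM, the droplet coat gene Plin2 (1.09), and 1 lower, the uncoupling protein gene Ucp2 (-1.71). The 4 PM results of all these genes around the pathway, Ucp2 and Bdh1 included, also stand beside the marker differences given above. The part of the marker differences in them was not tested.

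Receptors of these families bind the half-site AGGTCA, so the promoter windows of the members were searched. Windows of 250 bases before to 50 bases after the start, from RefSeq on GRCm38.p6, were held for 28 of the 34 members. AGGTCA on either strand occurred in 6 of 28 windows and in 16.3% of all 32817 windows. The longer motif TNAAGGTCA occurred in 0 of 28 (1.28% of all windows) and the half-site repeated after a single base (DR1) in 0 of 28 (0.0396%), and both contain the half-site. The half-sites before the start are shown in capitals, each on the strand of its gene, to give the bases around them.
Acadm, chr3:153944879-153944893, minus strand: gTGACCTtcgggctc
Scp2, chr4:108118643-108118664, minus strand: aacacagtAGGTCAaaagaacc
Echs1, chr7:140116491-140116512, minus strand: gcccgctcAGGTCAcgggtcca
Acadvl, chr11:70015502-70015523, minus strand: atcaccctAGGTCAggtagaat
Cpt1a, chr19:3323199-3323220, plus strand: ttccttacTGACCTcctccccg
In Acadm and Cpt1a the motif reads on the reverse strand as TGACCT, and the match of Phyh lies after the start. Of these genes Acadm, Scp2, Echs1 and Phyh were higher at 4 PM, Cpt1a was lower and Acadvl was not called, so the genes with a half-site moved in both directions.

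Over the 12 group means, the genes whose course was most like the mean of the mitochondrial members were Fam213a (Pearson r = 0.988), Chpt1 (r = 0.979) and Ndufs1 (r = 0.978), out of 14730 genes. For the peroxisomal members they were Dld (r = 0.990), Fh1 (r = 0.986) and Tmem50b (r = 0.983). The points share the libraries, their depth and their mixture of cells, so these values describe likeness of level only.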

How the data were processed

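Bulk RNA-seq of mouse iWAT was analysed for 2 diets at 6 times, with 4 libraries per group. The authors selected poly-A RNA, sequenced cDNA from random hexamers and deposited raw counts per gene for each library, without normalization. They also deposited FPKM averaged per group by the authors, used only to check that both deposited tables name groups alike. The submitters' processing notes name TopHat 1.3.3, DESeq2 1.20.0, limma and edgeR with the builds mm9, mm10 and GRCm38. The counting tool and the use of strand are not given in the sources used here. Diet, time and number came from the sample labels, with 0 sample columns left out.

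The counts were tested with edgeR 4.0.16 in R 4.3.3. TMM factors, filterByExpr (minimum count 10), 1 robust quasi-likelihood fit of the 12 groups and Benjamini-Hochberg adjustment over 19977 genes were used, with a threshold of 0.05. CPM and RPKM were computed with TMM library sizes and the deposited gene lengths, and the prior count of log2 CPM was 2. Tests covered each time, the day mean, the interaction with time, changes over the day within a diet and 24-hour sine waves. The code was tested on simulated data. Alternatives were limma-voom (limma 3.58.1), DESeq2 1.42.0, RLE factors, other filters, a fold threshold, a block of replicate numbers, marker covariates and leaving out libraries.

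Per-library values are given for members called at 1 or more times (at most 15 by adjusted p), for Cpt1a, Cpt1b, Hadha, Hadhb, Ehhadh and Phyh, and for the highest-RPKM member of each role, and at most 3 genes of each other list are named (some are not reported here). Members and lists were chosen with earlier results of these data known. Sequence reads and other experiments of the study were not analysed here.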

Additional observations from a re-analysis of the deposited data

Results flagged for a closer look

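The diet difference of Decr2, the peroxisomal dienoyl-CoA reductase, varied between the 6 times by an interaction test over all genes (adjusted p = 0.0396), as did the differences of 8.98% of all genes. Fitted 24-hour waves differed between TAN and ad-lib in 4 of the 33 genes by a test of that difference, and in 20.2% of all genes tested. These were Decr2 (adjusted p = 0.00797), Acox3 (adjusted p = 0.0197), Acads (adjusted p = 0.0421) and Acaa2 (adjusted p = 0.0438). Acads had fitted peaks at 5.57 h in ad-lib and 18.7 h in TAN, and Acaa2 at 6.75 h and 20.5 h, none of which was called within its diet. A search for single libraries far from the other 3 of their group covered 42 groups of values, all from the 4 PM libraries, and found 0. Libraries of the other times were not searched in this way.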

How the results depend on the processing

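The main limits are the mixture of cell types at 4 PM and the weight of single libraries. Shares of all genes called in the alternative fits are not given here, so the counts below describe the members alone. The lymphocyte covariate left 0 members called at 4 PM, the lymphocyte and muscle covariates together 0 and the adipocyte covariate 0, while 12 PM gained 1 under each, 8 PM gained 2, 1 and 3, and the ad-lib day and the ad-lib wave gained 1 each. The same 3 fits gave 2, 2 and 7 differing waves, the adipocyte covariate 9 waves in TAN, and the lymphocyte covariate 2 interactions with time. Acad11 turned negative at 4 PM, with -0.43, -0.49 and -0.34 under these covariates in the same order, and so did Ehhadh with -0.29, -0.27 and -0.24, and Crat with -0.0856 under the lymphocyte and -0.0809 under the adipocyte covariate.

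Keeping the libraries with a mean lymphocyte marker level of 4 or more left 1 TAN library at 4 PM, which is assumed to vary like the other groups. There 2 members were called at 4 PM, 2 at 8 PM and 2 for the interaction, and Acad11 and Acad10 turned negative with -0.28 and -0.23, while the median log2 difference was 0.82. Leaving out ad-lib 4 AM libraries 1 and 3 gave 3 members for the day mean, 2 for the interaction and 1 each for the ad-lib day and wave. These 2 alternatives and the adipocyte covariate were chosen after seeing the data. The cause of the changes was not tested.

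Without a filter on low counts 6 members were called at 4 PM, 3 for the day mean, 0 for the interaction (edgeR) and 2 for the wave difference. A log2 difference above 1 as a second condition left 11 at 4 PM and 0 for the day mean. For the interaction, DESeq2 called 4, and limma-voom, RLE size factors and a minimum of 10 counts in every library 2 each. DESeq2 called 1 at 12 AM, and limma-voom 13 over the TAN day. Deviations of same-numbered libraries of the diets from their group means had correlations of -0.320 to 0.484 (24 pairs, median r = 0.0418, 7 above 0.1). Whether such libraries share more than a number was not tested. With the replicate block 18 members were called at 4 PM and 0 for the interaction.

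Leaving out 1 library gave 0 to 24 members at 4 PM, 0 to 2 at 8 PM, 0 to 3 at 12 AM and 0 to 0 at 8 AM, 12 PM and 4 AM. The ranges were 3 to 9 for the day mean, 0 to 6 for the interaction, 0 to 1 for the ad-lib day, 2 to 24 for the TAN day, 0 to 1 and 1 to 9 for the ad-lib and TAN waves and 2 to 12 for their difference. Over 62 alternatives of the 33 gene results at 4 PM, 1726 kept direction and call, 270 lost the call, 40 gained one and 10 turned in direction. Most alternatives left out 1 of the 48 libraries, in most cases of another time, and kept the 4 PM libraries as they were. The number of unchanged results is therefore not a measure of stability at 4 PM. Cpt1a and Etfa each lost the call in 42 of 62, with adjusted p-values of 0.0168 to 0.591 for Cpt1a.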
